A study of Mus musculus with 4 samples.

Results

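The shelterin and telomerase genes are described here by the accessibility of their exons in J1 mouse embryonic stem cells with and without Zscan4 overexpression. They were chosen by symbol. The list holds 10 genes of the 46406 rows in the deposited table: Terf1, Terf2, Tinf2, Pot1a, Pot1b, Acd and Terf2ip, which encode shelterin, Tert, the catalytic subunit of telomerase, and Rif1 and Rtel1, which encode partners at the chromosome end. Each symbol was found on 1 row, each row had reads in all 4 libraries, and all 10 rows passed the filter on low values.

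J1 is a stem cell line from mouse blastocysts, which the labels say was grown in the absence of feeder cells, at the passage they write as PN+8. The measurement was ATAC-seq, in which the Tn5 transposase cuts and tags open DNA. Controls 1 and 2 carry the genotype labels wild type1 and wild type2, and the libraries Zscan4 OE1 and Zscan4 OE2 overexpress Zscan4, a zinc finger protein of the early embryo. The promoter and vector behind the overexpression, and whether it came from 1 clone, are not stated in the labels. Nor do the labels say whether replicates were separate cultures, so the p-values below rest on differences among these 4 libraries that may be only technical.

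Telomeres are arrays of the TTAGGG repeat that end in a single-stranded overhang. Shelterin coats them: Terf1 and Terf2 bind the double-stranded repeat, Pot1a and Pot1b bind the overhang, Acd ties Pot1 proteins to Tinf2, Tinf2 links them to Terf1 and Terf2, and Terf2ip rides on Terf2. The complex hides the chromosome end from the DNA damage response and controls the access of telomerase. Embryonic stem cells have active telomerase, and Zscan4 is known for lengthening their telomeres through recombination. The comparison asks whether the genes that build this machinery became more or less accessible themselves. Telomere length and the telomeric repeats were not measured.

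Library totals were inferred from the deposited values, as described under the processing. They were 1061428 (control 1), 2903602 (control 2), 3605774 (Zscan4 OE 1) and 4899494 (Zscan4 OE 2) reads. Of these, 12.4%, 9.38%, 12.8% and 9.93% fell on exons, in the same order, so in each group replicate 1 was above replicate 2. Levels are RPKM, reads per kilobase of exon and per 1000000 library reads, after each value was rescaled to the total of its own library. The labels could not be checked on the targeted gene, because Zscan4a, Zscan4c, Zscan4d and Zscan4f were listed at 0 in all 4 libraries. Stem cell markers gave no check either: all 12 had reads, with sums of 43.7 to 92.4 RPM (reads per 1000000 library reads), but so had all 10 fibroblast genes, with sums of 56.1 to 85.1 RPM. Of the 7 markers of 2-cell-like cells in the table, 3 had reads, with sums of 0 to 1.88 RPM. All 8 primitive endoderm markers had reads, with sums of 48.0 and 42.4 RPM in the controls, against 35.2 and 32.7 in the Zscan4 OE libraries, and 3 of the 8 had non-overlapping lower values, as had 10.1% of all rows. Their part in the results below was not tested.

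All 10 genes had moderate exon accessibility. Single libraries held 4 to 64 reads of a gene, and a gene had 42 (Pot1b) to 125 (Rif1) reads in all. The mean level over the 4 libraries ran from 0.888 RPKM in Rif1 to 1.88 in Acd, a range of 2.12-fold. Among the 19012 rows with 20 reads or more, these levels stood between the 37.8th and the 83.4th percentile. The order from the top was Acd, Terf2, Terf1, Terf2ip, Pot1b, Tert, Rtel1, Tinf2, Pot1a and Rif1. In none of the 9 pairs of neighbours in that order did the gap exceed the pooled SD over libraries (0 of 9). The exon length behind a value ran from 3499 bp in Pot1b to 10504 bp in Rif1, and across the 10 genes, which share their libraries, total reads went with length (Pearson's r = 0.69, Spearman's rho = 0.52). For Acd the length, 3625 bp, exceeded the span of 3074 bp that RefSeq gives, so the gene model used for the table differs from RefSeq there.

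**Figure D1:**
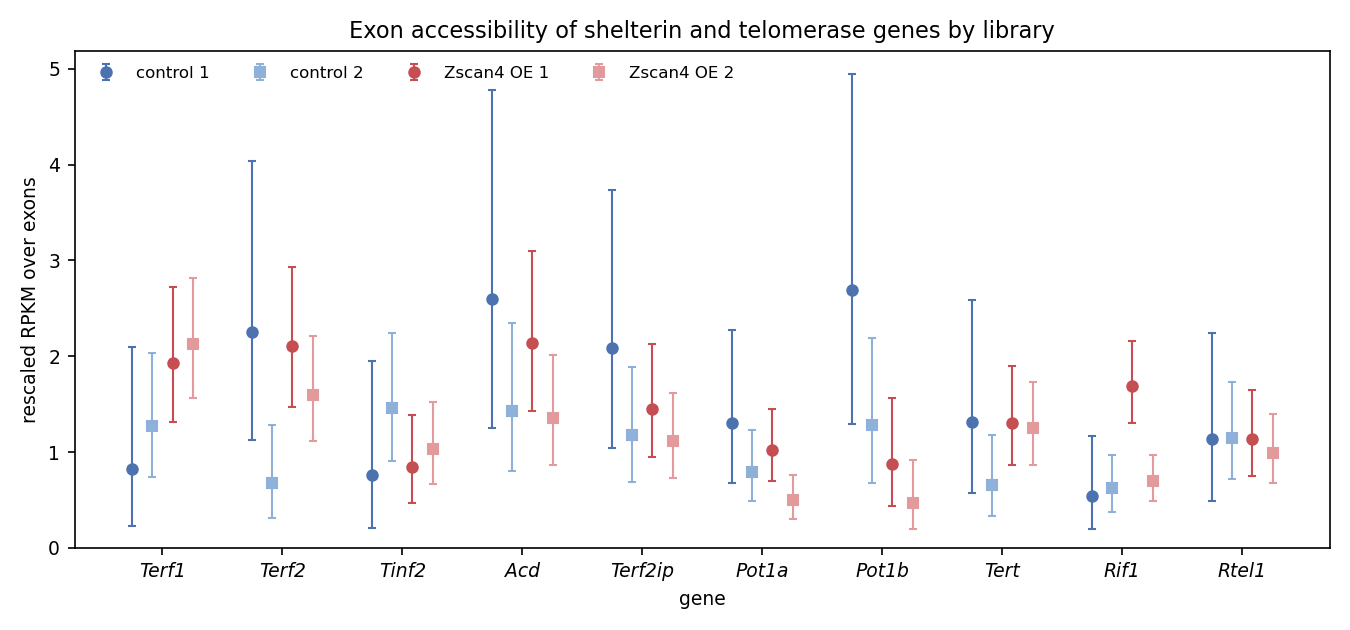
Level of each gene in each library, in RPKM rescaled to the library's own total (vertical axis, linear from 0), with exact Poisson 95% intervals as bars. Circles are replicate 1 and squares replicate 2, blue for control and red for Zscan4 OE. Both Zscan4 OE points of Terf1 lie above both control points, and both of Pot1b lie below, while the bars of control 1 are the widest.

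Taken as one pool, the exon reads of the 10 genes kept their share of all exon reads. Their sum was 84 reads in control 1, 164 in control 2, 297 in Zscan4 OE 1 and 292 in Zscan4 OE 2. Per library total that is 79.1 RPM (exact Poisson 95% interval 63.1 to 98.0) and 56.5 (48.2 to 65.8) in the controls, against 82.4 (73.3 to 92.3) and 59.6 (53.0 to 66.8) in the Zscan4 OE libraries. The groups overlapped, and both replicates 1 were above both replicates 2, as in the exon shares. The group means, 67.8 ± 16.0 and 71.0 ± 16.1 (SD, n = 2), had a ratio of 1.05, and the same ratio over all rows was also 1.05. Per 1000000 exon reads the 10 genes had 640 and 602 reads in the controls, against 643 and 600.2 in the Zscan4 OE libraries, a ratio between group means of 1.001. Leaving out any 1 gene gave ratios per library total from 0.947, without Rif1, to 1.13, without Pot1b. The intervals cover counting error only.

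**Figure D2:**
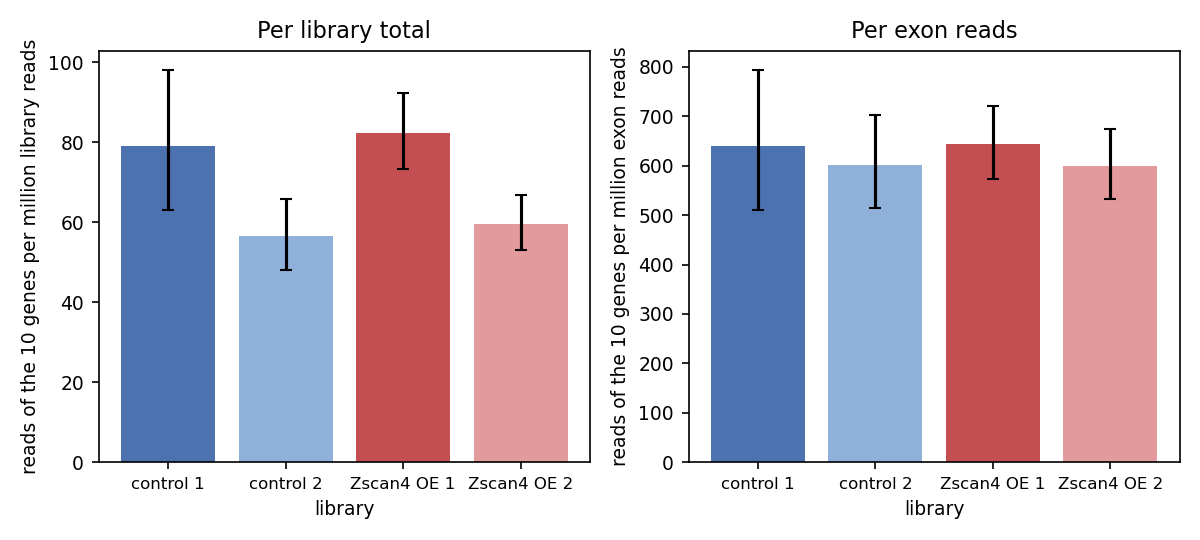
Summed reads of the 10 genes in each library, per 1000000 library reads (left) and per 1000000 exon reads (right), with exact Poisson 95% intervals. On the left both replicates 1 (79.1 and 82.4) stand above both replicates 2 (56.5 and 59.6); on the right the 4 libraries lie between 600.2 and 643.

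Within that sum single genes differed in both directions, and none passed the test. In limma on log2(RPKM + 0.1), adjusted by Benjamini-Hochberg over 42989 rows at a threshold of 0.05, 0 of the 10 genes were called. Over all rows 0 were called higher and 0 lower (0% and 0%), with 0.156 as the smallest adjusted p. Limma's voom, on rows with 20 reads or more, called 0 higher and 1 lower. Calls over all rows changed widely when a Zscan4 OE library was left out, but none of the 10 genes was among them. Such fits have 1 residual degree of freedom and take the variance from the controls alone. Their calls are therefore not read as changes. None of the 10 (0) had an unadjusted p under 0.05, which 5.09% of rows met as higher and 1.33% as lower. That count depends on the setting: of 14 alternatives, Pot1b was under 0.05 in 6 (limma, unadjusted p of 0.0122 to 0.0445), Terf1 in 1 (0.0366, without control 2) and Rif1 in 1 (0.0377, values as deposited). Of the 10 differences 4 were positive and 6 negative, against 62% and 38% of all rows. The median was −0.14, against 0.28 over all rows and 0.14 over rows with 20 reads or more. The direction turned with 1 library: without control 1, 6 genes were positive with a median of 0.17 (0.29 over all rows), and without Zscan4 OE 2, 6 were positive with a median of 0.07 (0.36 over all rows). Controls 1 and 2 had 0 reads in 35.8% and 20.1% of tested rows, against 14.5% and 11.2% in Zscan4 OE 1 and 2. The part of these rows in the shares over all rows was not tested. Groups did not overlap in 4 genes, 2 higher (Terf1 and Rif1) and 2 lower (Pot1b and Rtel1), where 19.6% of all rows did so as higher and 10.1% as lower. With 10 genes, counts of 2 and 2 are not read as a result about the list.

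Of the 2 genes for proteins on the double-stranded repeat, Terf1 stood higher in Zscan4 OE. Terf1 (chromosome 1, 15805546 to 15844052, GRCm38) was at 0.818 RPKM in control 1 and 1.27 in control 2, and at 1.93 and 2.13 in the libraries Zscan4 OE 1 and 2, from 4, 17, 32 and 48 reads. Both Zscan4 OE values were above both controls and close to each other. The means, 1.04 ± 0.320 and 2.03 ± 0.142 (SD, n = 2), differed 1.94-fold. The limma log2 difference, taken between means of log2(RPKM + 0.1), was 0.92 (SE 0.46, limma adjusted p = 0.869). Counting intervals were wide, 0.223 to 2.09 in control 1, 0.740 to 2.03 in control 2 and 1.32 to 2.72 in Zscan4 OE 1. Terf1 was positive whichever library was left out, from 0.63 without control 1 to 1.21 without control 2.

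Terf2 did not separate the groups. Terf2 (chromosome 8, 107069400 to 107096548) was at 2.25 and 0.674 RPKM in the controls, against 2.11 and 1.60 in the Zscan4 OE libraries, from 11, 9, 35 and 36 reads. Control 1 was the highest of the 4 libraries and control 2 the lowest, 3.34-fold apart, the widest gap between controls among the 10 genes. The log2 difference of 0.52 (SE 0.69, limma adjusted p = 0.889) turned to −0.28 without control 2. In RefSeq a pseudogene, LOC108167553 (9817 bp), and Mir7075 lie within the span of Terf2. Terf2ip (chromosome 8, 112011359 to 112020528), which encodes the Rap1 partner of Terf2, was at 2.09, 1.18, 1.45 and 1.11 RPKM in controls 1 and 2 and Zscan4 OE 1 and 2. The groups overlapped, and its difference of −0.29 (SE 0.51) turned to 0.10 without control 1. A pseudogene, Gm6793, lies inside the span of Terf2ip, and the sources used here do not say how reads shared by overlapping features were counted.

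The genes for the bridging proteins, Tinf2 and Acd, showed no difference beyond the spread of the libraries. Tinf2 (chromosome 14, 55676208 to 55682159) was at 0.763 and 1.46 RPKM in the controls, against 0.842 and 1.03 in the Zscan4 OE libraries, from 4, 21, 15 and 25 reads. Both Zscan4 OE values lay between the controls. Its difference of −0.17 (SE 0.55) turned to 0.26 without control 2. Acd (chromosome 8, 105698155 to 105701228), which encodes the protein TPP1 that also recruits telomerase, was at 2.60 and 1.43 RPKM in the controls, against 2.14 and 1.35 in the Zscan4 OE libraries. In both groups replicate 1 was the higher, and the difference of −0.17 (SE 0.54) turned to 0.24 without control 1 and 0.14 without Zscan4 OE 2. The whole span of Tinf2 lies within that of Gmpr2 in RefSeq, and Acd shares 41 bp with Carmil2 and 81 bp with Pard6a.

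The genes for the proteins of the single-stranded overhang had the most negative differences of the list. Mice have 2 Pot1 genes where most mammals have a single one: Pot1a represses the damage response at telomeres, and Pot1b limits resection of the end. Pot1b (chromosome 17, 55651190 to 55712647) was at 2.69 and 1.28 RPKM in controls 1 and 2 and at 0.872 and 0.467 in the libraries Zscan4 OE 1 and 2, from 10, 13, 11 and 8 reads. Both Zscan4 OE values were below both controls, and the replicates of each group differed from each other 2.10-fold in the controls and 1.87-fold in Zscan4 OE. The means, 1.99 ± 0.999 and 0.669 ± 0.287 (SD, n = 2), differed 2.97-fold. The limma log2 difference was −1.40 (SE 0.62), the largest in size of the 10. Its unadjusted p was 0.0783 and its adjusted p 0.869 (limma). Leaving out control 1 gave −0.89 and control 2 −1.91, and leaving out Zscan4 OE 1 gave −1.79 and Zscan4 OE 2 −1.01. In RefSeq a pseudogene, Gm18648 (1411 bp), and the small nuclear RNA gene Gm22654 lie within the span of Pot1b.

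Pot1a (chromosome 6, 25743940 to 25809277) was at 1.30 and 0.795 RPKM in the controls, against 1.02 and 0.494 in the Zscan4 OE libraries, from 12, 20, 32 and 21 reads. Its groups overlapped, and its difference of −0.46 (SE 0.61, limma adjusted p = 0.890) was −0.91 without Zscan4 OE 1 and 0.0038 without Zscan4 OE 2. Whether the differences of the 2 paralogues differ from each other was not tested. They are related genes, and the labels do not state how reads that fit both were counted.

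Pot1b and Rtel1 were the genes with lower, non-overlapping values, and their promoters are shown to place them beside motifs of telomere and early embryo factors. The table counts exons, so reads over these bases were not measured. The windows are the 250 bases before the start site, from RefSeq on GRCm38.p6, 5′ to 3′ on the minus strand for Pot1b (chr17:55712637-55712886) and on the plus strand for Rtel1 (chr2:181319474-181319723). Capitals mark matches on either strand to TTAGGG (the telomere repeat), GGGCGG (the GC box of Sp1 factors) and CCAAT (the box of NF-Y), of which the CCAAT matches of Pot1b overlap each other.
Pot1b: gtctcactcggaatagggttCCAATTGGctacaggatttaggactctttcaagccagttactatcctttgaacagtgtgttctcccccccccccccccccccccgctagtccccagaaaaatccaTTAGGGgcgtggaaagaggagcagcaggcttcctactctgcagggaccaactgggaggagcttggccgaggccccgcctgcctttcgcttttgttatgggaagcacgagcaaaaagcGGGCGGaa
Rtel1: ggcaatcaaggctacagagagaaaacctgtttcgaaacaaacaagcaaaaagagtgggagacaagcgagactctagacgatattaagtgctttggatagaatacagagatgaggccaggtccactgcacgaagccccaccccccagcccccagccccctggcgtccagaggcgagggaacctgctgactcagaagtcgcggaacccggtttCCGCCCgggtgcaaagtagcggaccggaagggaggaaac
Such a window was found for 8 of the 10 genes, not for Terf1 and Rif1. These 8 genes had 10 windows, since Terf2 and Pot1b have a second start site. The 8 are counted per gene and the shares over the genome per window, so the units differ. TTAGGG was present in 1 of these 8 genes, Pot1b, and in 9.32% of 32851 mouse promoter windows of the same length. GGGCGG was present in 4, Pot1a, Pot1b, Tert and Rtel1, and in 32.7% of all windows, and CCAAT in 3, Terf2, Pot1b and Acd, and in 33.8%. TGCACAC, the core that Zscan4 is known to bind, was in 0 of the 8 and in 3.67% of all windows. A match is a run of letters and not a measured site.

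Tert, which encodes the reverse transcriptase that copies the repeat onto the end, did not separate the groups. Tert (chromosome 13, 73626911 to 73649843) was at 1.32 and 0.661 RPKM in the controls, against 1.31 and 1.25 in the Zscan4 OE libraries, from 8, 11, 27 and 35 reads. Control 1 and both Zscan4 OE libraries were alike, and control 2 was the low one. The means were 0.988 ± 0.463 and 1.28 ± 0.0425 (SD, n = 2), and the limma log2 difference was 0.41 (SE 0.54, limma adjusted p = 0.887). Without control 2 it was −0.04, and without control 1 it was 0.85.

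Of the 2 partner genes, Rif1 stood higher in a single library. Rif1, which sets replication timing and guards broken and uncapped ends (chromosome 2, 52072815 to 52126769), was at 0.538 and 0.623 RPKM in the controls, against 1.69 and 0.700 in the Zscan4 OE libraries, from 6, 19, 64 and 36 reads. The groups did not overlap, but Zscan4 OE 2 was within counting error of the controls (0.490 to 0.968), and the interval of Zscan4 OE 1 (1.30 to 2.16) lay above those of the 3 other libraries. The means, 0.581 ± 0.0600 and 1.19 ± 0.700 (SD, n = 2), differed 2.06-fold. The limma log2 difference was 0.82 (SE 0.63, limma adjusted p = 0.869). Without Zscan4 OE 1 the difference was 0.24, and without Zscan4 OE 2 it was 1.40.

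Rtel1, a helicase that unwinds telomeric loops (chromosome 2, 181319711 to 181356616), had the least spread over the libraries of the 10. It was at 1.139 and 1.145 RPKM in the controls, against 1.132 and 0.987 in the Zscan4 OE libraries, from 8, 22, 27 and 32 reads. The groups did not overlap, yet Zscan4 OE 1 lay just under control 1, and the highest library was 1.16 times the lowest. Counting intervals were wider than that, 0.492 to 2.24 in control 1 and 0.675 to 1.39 in Zscan4 OE 2. The closeness of the values is therefore not read as a steady level. The log2 difference was −0.10 (SE 0.45, limma adjusted p = 0.988).

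**Figure D3:**
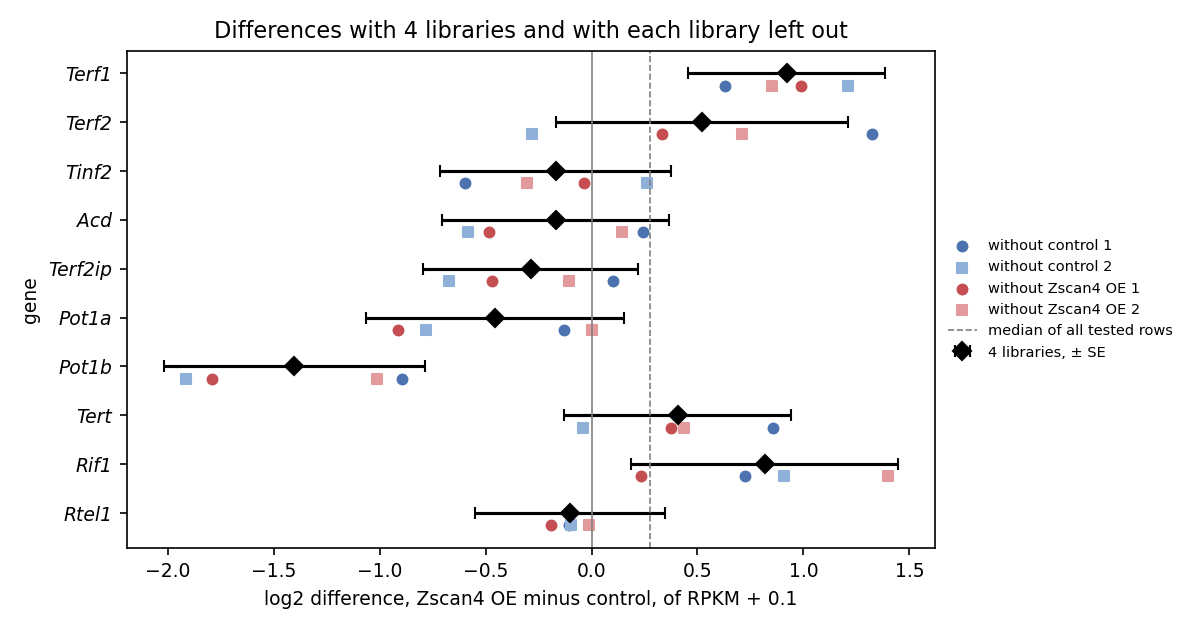
Log2 difference (Zscan4 OE minus control, of RPKM + 0.1, horizontal axis) for each gene, with all 4 libraries (black diamonds, bars are SE) and with each library left out (coloured points). The dashed line is the median over all tested rows (0.28). Terf1, Rif1, Pot1b and Rtel1 keep their sign in every fit shown, while the other 6 cross 0 in at least 1 fit.

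The rescaling decided the direction of 5 of the 10 genes. In the deposited table a value had been divided by 1 of 8 totals that took turns from row to row, and only the rows of Terf1 and Rtel1 (2 of the 10) had all 4 values on the totals assigned to their own libraries. For the other 8 genes the rescaled value was 0.217 to 4.62 times the deposited one. As deposited, Pot1b read 0.984 and 1.54 RPKM in the controls, against 1.41 and 2.15 in the Zscan4 OE libraries, with control 1 lowest, where the rescaled values have it highest. As deposited 9 of the 10 genes had a positive difference, 6 had non-overlapping higher values and 1 had lower ones. The same held over the table: 84.2% of all rows were positive as deposited, 47.5% had non-overlapping higher values, and 2.42% lower. Tinf2 then stood at 1.32, Acd at 1.24, Terf2ip at 1.10, Pot1a at 0.98 and Pot1b at 0.47, all negative after rescaling. Reads divided by each library's exon reads gave the rescaled sign for all 10 genes, but this is no independent check, since the totals were assigned so that exon shares were most alike.

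**Figure D4:**
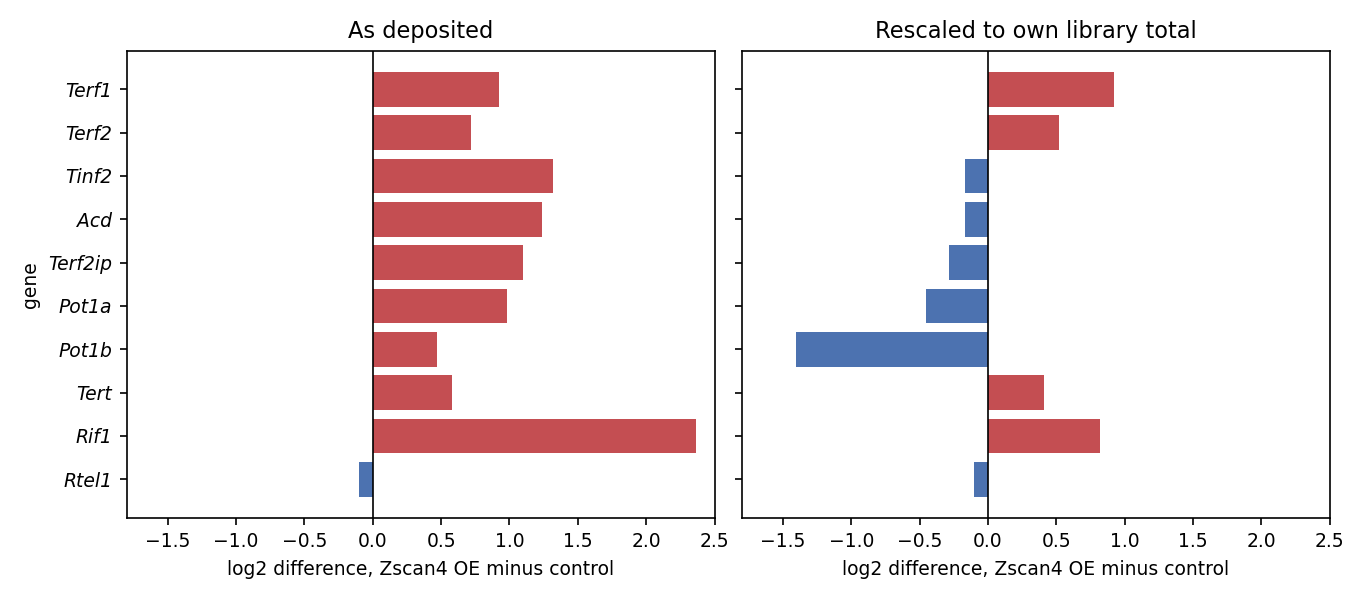
Log2 difference of each gene in the values as deposited (left) and after rescaling to the library's own total (right), on the same axis, red above and blue below 0. On the left 9 of 10 bars point to Zscan4 OE, and on the right 4 of 10 do.

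Other telomere genes gave no call either. The 4 lists hold 59 genes, of which 43 had a positive and 16 a negative difference, where 62% of all rows were positive, and the median was 0.23 against 0.28. None of the 59 passed the adjusted threshold (smallest limma adjusted p = 0.486), and 2 were higher and 0 lower at an unadjusted p under 0.05, where 5.09% and 1.33% of all rows were. Groups did not overlap in 17 as higher and 4 as lower, where 19.6% and 10.1% of all rows did so.

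Of 13 telomerase partners tested, 8 were positive, where 62% of all rows were, with a median of 0.22 against 0.28. The median was negative without control 2 (−0.20, 4 positive) and without Zscan4 OE 1 (−0.18, 5 positive). It was 0.68 without control 1 and 0.69 without Zscan4 OE 2. Over all rows it was 0.21, 0.12, 0.29 and 0.36 in the same order. Gar1, a protein of the H/ACA particle that stabilises the telomerase RNA, had 1 and 3 reads in the controls, against 12 and 20 in the Zscan4 OE libraries. Its level was 0.576 ± 0.0376 and 2.16 ± 0.311 RPKM (SD, n = 2), and the limma log2 difference was 1.74 (limma adjusted p = 0.486). Pinx1, an inhibitor of telomerase, had 0 and 1 reads in the controls, against 6 and 7 in the Zscan4 OE libraries (limma adjusted p = 0.777). Naf1, an assembly factor of the same particle, was positive at 0.95 with 5, 8, 29 and 32 reads in the 4 libraries. Tep1, a telomerase-associated protein, and Ruvbl1, an assembly ATPase, were the most negative, at −0.42 and −0.41. Terc, the telomerase RNA itself, named for its role, had 1, 0, 2 and 8 reads.

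The genes of end processing had the most positive median of the 4 lists. Of 13 tested, 11 were positive, where 62% of all rows were, with a median of 0.58 against 0.28. Of these 13, 5 had non-overlapping higher values, where 19.6% of all rows did. The median was 0.33 without control 2 and 0.32 without Zscan4 OE 1, and 0.76 and 0.90 without control 1 and Zscan4 OE 2. Over all rows it was 0.21, 0.12, 0.29 and 0.36 in the same order. Rpa3, a subunit of the single-strand binding protein RPA, was at 1.51 with 2, 1, 12 and 10 reads in the 4 libraries, and Pola1, the catalytic subunit of DNA polymerase alpha, at 1.21 with 1, 11, 21 and 29 reads. The most negative were Rpa2, another RPA subunit, at −0.49, and Ctc1, a subunit of the CST complex that ends telomerase action, at −0.13.

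Of 15 telomere regulators outside shelterin, 10 were positive and 5 negative, where 62% and 38% of all rows were. Their median was 0.07, against 0.28 over all rows. It ran from −0.11 without control 2 to 0.21 without control 1, and was −0.03 without Zscan4 OE 1. Over all rows the median was 0.21, 0.29 and 0.12 in the same order. Tnks1bp1, a tankyrase-binding protein, stood at 0.72, and Tnks2, a tankyrase, at 0.57. Xrcc6, the Ku70 end-binding protein, stood at −0.33 and the damage kinase Atr at −0.26.

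Chromatin and recombination genes were positive in 14 of 18, where 62% of all rows were, with a median of 0.24 against 0.28. The median was 0.13 without Zscan4 OE 1 and 0.45 without Zscan4 OE 2. Over all rows it was 0.12 and 0.36 in the same order. Rad52, a recombination mediator, had 2, 5, 32 and 21 reads in the 4 libraries. Its group means were 0.313 ± 0.0199 and 1.14 ± 0.564 RPKM (SD, n = 2), and the limma log2 difference was 1.51 (limma adjusted p = 0.869). Mre11a, a nuclease of the MRN complex, stood at 0.69. H3f3a, which encodes histone H3.3, and the helicase Recql4 were the most negative, at −0.45 and −0.19.

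The genes whose profile over the 4 libraries was most like the summed profile of the 10 were Hibch, Brca1 and Prrc2c. Likeness was the smallest distance between log2 values of RPM + 0.1, each centred on its own mean, among 2595 rows with 100 reads or more outside the lists. Their distances were 0.0231, 0.0492 and 0.0614, over 4 libraries. Hibch had 14.1 and 9.99 RPM in the controls, against 14.7 and 10.4 in the Zscan4 OE libraries. It shares the alternation of replicates with the sum by the way it was chosen. All rows together alternated likewise, at 123612 and 93803.5 RPM in the controls, against 128039 and 99301.7 in the Zscan4 OE libraries.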

How the data were processed

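The authors deposited 1 table with an RPKM value per gene and library, made with Trimmomatic, Bowtie2 and featureCounts on build mm10, per the submitters' processing notes. Those notes give no versions, and the labels do not state read filters, the handling of duplicates, any Tn5 shift or the annotation. A value taken over exons leaves out most promoters and distal elements.

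The deposited values rest on 8 rotating totals, identified from the values of 2485 annotated small RNA genes. All 38361 rows with 2 or more values gave whole reads, to within 1.2 times the largest rounding error of the deposited decimals, for exactly 1 rotation. Of 5918 rows with 1 value, 523 fitted more than 1 rotation, and the rotation with the shortest length was taken. Within a rotation, too, the shortest length giving whole reads was used for every row. Reads and length can then both be the same fraction of the true ones, so counts of reads are minimum counts. The rotation order was taken as the most frequent step between neighbouring genes, which 62.5% of 28561 neighbour pairs made. Of the 8 placements of totals that keep the rotation order, the one with the most alike exon shares was taken (highest over lowest 1.36, others 4.17 or more), so those shares are no independent check. Values were rescaled to the library's own total. Since they were not on 1 scale as planned, the deposited values became an alternative.

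Groups were compared with limma 3.58.1 (R 4.3.3) on log2(RPKM + 0.1), eBayes trend, two-sided, rows with mean RPKM of at least 0.1. A difference on this scale understates the change of low values. Replicates differed beyond sampling noise (chi-square per degree of freedom 2.33 and 1.91). Recovery and fit were tested on simulated data. Both simulations drew Poisson reads, without this extra noise, and the fit was given changes larger than any of the 10 genes. They do not measure the power or the error of the test for these genes. The genes, lists and rules were chosen with earlier results of these data known. Named genes are the 10, plus, in each other list, those at an unadjusted p under 0.05 and the 2 most positive and 2 most negative with 20 reads or more. Coordinates are RefSeq's on GRCm38, the assembly behind mm10, and all 10 symbols matched.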

Additional observations from a re-analysis of the deposited data

How the results depend on the processing

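No alternative called any of the 10 genes: across 14 alternatives the 140 differences had adjusted p of 0.307 or more. Signs changed in 12 of the 140. In the values as deposited Tinf2 was at 1.32, Pot1a at 0.98, Pot1b at 0.47, Acd at 1.24 and Terf2ip at 1.10, the median was 0.95, 9 genes were positive, and 6 had non-overlapping higher and 1 lower values. Leaving out 1 library moved Acd between −0.58 and 0.24, Terf2ip between −0.67 and 0.10, Terf2 between −0.28 and 1.32, Tinf2 between −0.60 and 0.26, Tert between −0.040 and 0.85, and Pot1a between −0.91 and 0.0038. The lone library of a group is then assumed to vary like the other group. Terf1, Rif1 and Rtel1 kept their sign in all 14 alternatives, and Pot1b in all but the deposited values. The median over the 10 genes ran from −0.19 to 0.17 without 1 library, and its distance from that of all rows from −0.40 to −0.12. That distance was −0.41 with all libraries, −0.18 with a pseudocount of 1 and −0.19 with quantile normalization, and the median was −0.41 with median centring. Non-overlapping higher values fell to 1 gene with median centring and to 1 with quantile normalization. Lower ones were found in 3 genes when scaled by exon reads, 3 with median centring and 4 with quantile normalization. The shares over all rows under these settings were not counted, so these counts are not read as a result about the list. Over all rows the calls were 4 higher and 1 lower with 20 reads or more, 1 lower with voom, and, without 1 library, 0 to 4530 higher and 0 to 6 lower, the highest counts without Zscan4 OE 1. With the replicate number as a block 0 were higher and 0 lower and the median was −0.14. Deviations of same-numbered libraries had a correlation of 0.04 over all tested rows and 0.13 with 20 reads or more, and with 2 pairs the numbers are not shown to pair libraries. The sum of reads does not depend on pseudocount, filter, centring or block. Its ratio of 1.05 was 1.001 when scaled by exon reads. The ratio turned with 1 library: it was 1.26 without control 1 and 1.21 without Zscan4 OE 2. Without control 2 it was 0.897, and without Zscan4 OE 1 it was 0.879. Its spread, from n = 2 per group, was 0.34, so staying within it is not read as stability. Depth limits all values: 3 reads, the limit that a count of 0 allows, are 2.83 RPM in control 1 and 0.612 in Zscan4 OE 2.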
